A study of Mus musculus with 4 samples.

Results

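The T and NK cell genes described here are 10 genes of the antigen receptor, of its signalling and of the cytotoxic granule: Cd3d, Cd3g, Cd8a, Cd5, Zap70, Lck, Prf1, Gzma, Gzmb and Nkg7. They were read through every probe set whose only gene symbol in the platform annotation is one of them, which gave 12 of the 22626 probe sets on the array and covered 9 of the 10 genes, of 12393 genes named on the array. No probe set had Lck, the kinase that starts T cell receptor signalling, as its only symbol, and Lck is not analysed here. RNA from liver of adult male C57BL6 mice was measured on 4 Affymetrix arrays, 2 per group. The control group had received adenovirus carrying green fluorescent protein (GFP), and the other group adenovirus carrying mouse lipin 1beta, a phosphatidate phosphatase that also acts as a transcriptional coactivator in liver. Both groups were taken 6 days after injection, and every animal, controls included, had therefore received a virus. The promoter that drives either transgene is not given in the sources used here, nor whether the 2 arrays of one treatment came from different mice. The p-values therefore measure only the spread between arrays, which may be technical.

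T cells recognise antigen through the T cell receptor, whose CD3 chains pass the signal to the kinases Lck and ZAP70, with CD4 or CD8 as coreceptor. Cytotoxic T cells and natural killer (NK) cells kill by releasing granules that hold perforin, which forms pores, and granzymes, serine proteases that enter the target cell and start its death. The liver is rich in resident NK and T cells, and cytotoxic T cells are known to enter it after adenovirus infection. In whole liver RNA, fewer cells of a type and less RNA per cell cannot be told apart.

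Values are MAS5 signals in arbitrary units, with a 2% trimmed mean of 1501 on each array. The floor, 119.5, is the 20th percentile of all signals, and values under it have no order among themselves. Arrays had between 18.4% and 20.9% of their probe sets under it. A probe set was tested where its floored geometric mean reached 373, and is called too dim to test otherwise. Beta-actin, read at both ends of its transcript as a gauge of RNA quality, had a 3'-to-5' ratio of 1.77 (GFP replicate 1), 4.22 (GFP replicate 2), 2.85 (lipin replicate 1) and 2.86 (lipin replicate 2). The labels call the RNA of lipin replicate 2 polyA and that of the remaining samples total. Hepatocyte genes were bright in all samples, with Alb, serum albumin, between 571407 and 1069100. Lpin1 itself had 2 probe sets. The dimmer read 2730.1 and 1430.2 with GFP against 2260.5 and 6719 with lipin virus, the brighter 7082 and 4632 against 3854 and 11087. Lipin replicate 1 did not exceed both controls in either, so directions rest on the labels. GFP replicate 2 correlated least with the other arrays, at a mean of 0.731 against 0.781 to 0.793.

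Most T and NK cell probe sets bright enough to test read lower in the lipin arrays than in the GFP arrays, but no difference passed the test over all probe sets. Of the 12 probe sets, 4 were too dim to test and 8 were tested, covering 7 genes, with mean signals between the 44.0th and the 86.2nd percentile of all probe sets. In 7 of the 8 the log2 difference was below 0, as in 49.7% of all tested probe sets, among them the granzyme genes Gzma and Gzmb, the perforin gene Prf1 and both Zap70 probe sets, and in 1, Cd5, it was above 0. With limma, 0 of 8 passed an adjusted p of 0.05 over all 13576 probe sets tested, and 0 passed it unadjusted. The background was also 0% by the adjusted rule, and 2.47% of all tested probe sets were higher and 1.92% lower by the unadjusted one. The adjusted p of the members ran from 0.962 to 0.977 and the lowest unadjusted p was 0.144. In 4 of the 8 both lipin arrays lay below both GFP arrays, where 15.9% of all tested probe sets did so, and in 1 both lay above, where 17.1% did so. These counts, and that of differences below 0, are a description and no support. The filter uses the mean over all 4 arrays, so a probe set can pass it through the group where it is high. Cd8a (1451673_at) read 351 and 318 in lipin, both under the 373 of the filter. On the floored log2 scale, Gzma, Gzmb and the dimmer Zap70 probe set also averaged under it in lipin, and Cd5 did in GFP. With 2 arrays against 2, an exact permutation test of a single probe set cannot go below p = 0.333, two-sided.

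**Figure D1:**
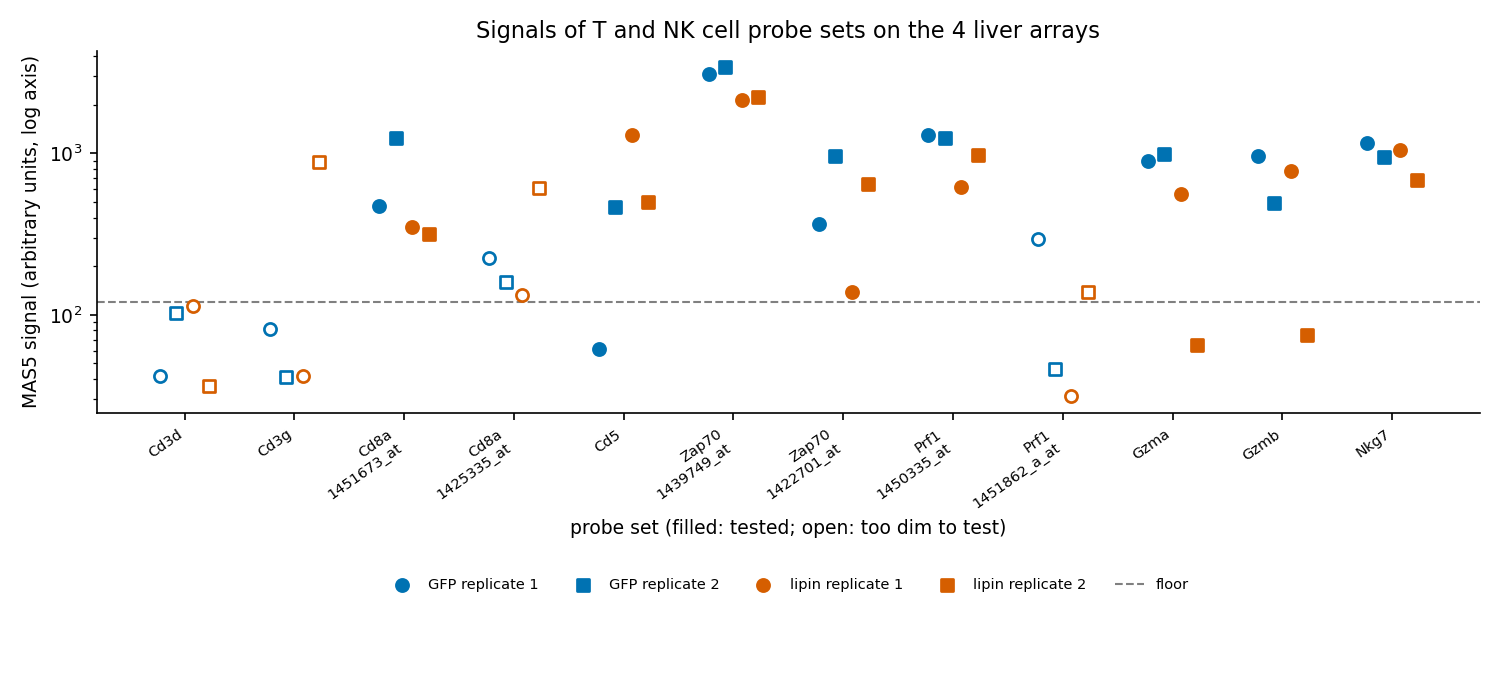
MAS5 signals in arbitrary units on a log axis, for the 12 probe sets of T and NK cell genes, with a point for each of the 4 arrays (blue GFP, orange lipin; circles replicate 1, squares replicate 2). Filled points are the 8 tested probe sets, open points those too dim to test, and the dashed line is the floor of 119.5; the brighter Zap70 probe set stands highest and tightest, and lipin replicate 2 lies below the floor for Gzma and Gzmb.

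Among the receptor chains, neither CD3 gene could be tested. Cd3d, the delta chain of CD3, read 41.8 and 103 with GFP and 114 and 36.2 with lipin, all 4 under the floor, so it has no difference on the floored scale. Cd3g, the gamma chain, read 81.2 and 41.4 in GFP and 42 in lipin replicate 1, all under the floor. It stood above the floor on 1 array, lipin replicate 2, with 883. Its log2 difference of 1.44 therefore comes from a single array and was 0.00 without it. The other CD3 chains and CD4 were read through the list of T cell receptor genes: Cd3e, the epsilon chain, gave 99.0 and 699 in GFP and 509 and 323 in lipin, and Cd4 gave 36.0 and 419 in GFP and 170.2 and 303 in lipin. Both were too dim to test, and both were under the floor on GFP replicate 1 only.

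The coreceptor gene Cd8a, which marks cytotoxic T cells, had 2 probe sets that pointed in opposite directions. The brighter (1451673_at) read 472 and 1246 in GFP and 351 and 318 in lipin, so the groups did not overlap and GFP replicate 2 stood far above the other 3 arrays. The GFP mean was 859 ± 547, the lipin mean 335 ± 23.2 (SD, n = 2 each), and the log2 difference -1.20 ± 1.14 (SE; limma adjusted p = 0.962). Without GFP replicate 2 the difference was -0.50. The dimmer probe set (1425335_at) read 223 and 159 in GFP and 133 and 607 in lipin, overlapping, with lipin replicate 2 the highest. Its log2 difference was 0.59, not tested, and without lipin replicate 2 it was -0.51. Cd8b1, the partner chain of Cd8a, read 457 and 153 in GFP and 430.0 and 374 in lipin, also too dim to test.

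Cd5, an inhibitory receptor of T cells and of a subset of B cells, was the tested member that read higher in lipin. It read 61.7 and 468 in GFP and 1305 and 497 in lipin. Both lipin arrays lay above both GFP arrays, but lipin replicate 2 exceeded GFP replicate 2 by little, and GFP replicate 1 was under the floor. The log2 difference was 1.77 ± 1.34 (SE, n = 2 each; limma adjusted p = 0.962). It was 0.78 without GFP replicate 1, 1.07 without lipin replicate 1, 2.46 without lipin replicate 2 and 2.75 without GFP replicate 2. The arrays of one group thus differed about as much as the groups, by 1.97 on the log2 scale between the GFP arrays and by 1.39 between the lipin arrays.

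Zap70, the kinase that binds the phosphorylated CD3 and zeta chains, gave the brightest of the tested member probe sets, which also had the tightest replicates of them. Its brighter probe set (1439749_at) read 3089.9 and 3416 in GFP and 2127 and 2226 in lipin. The GFP arrays were both higher than the lipin arrays, and replicates lay close together in each group, with means of 3253 ± 230.2 and 2177 ± 69.7 (SD, n = 2 each). The log2 difference was -0.58 ± 0.42 (SE), or 1.49-fold lower, with a limma adjusted p of 0.962 and an unadjusted p of 0.185. With each array left out in turn it stayed between -0.65 and -0.51. In the fit without the filter on dim probe sets, where the trend of spread with intensity is estimated from all 22626 probe sets, the SE was 0.19, the unadjusted p 0.0433 and the adjusted p 0.836. It was the single member of 12 with an unadjusted p under 0.05 there. The prior degrees of freedom were 1.63 in that fit and 12.7 in the main one. The probe set's own small spread, from 2 arrays per group, therefore weighed more. Over all 22626 probe sets of that fit, 651 were higher and 652 lower by the same limma rule.

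The second Zap70 probe set (1422701_at) varied far more between arrays. It read 365 and 956 in GFP and 138 and 644 in lipin, so the groups overlapped and replicate 2 was the brighter array in each. Its log2 difference was -0.99 ± 1.39 (SE, n = 2 each; limma adjusted p = 0.962), and it turned to 0.12 without lipin replicate 1. Without GFP replicate 2 it was -0.29, and without lipin replicate 2 it was -2.10. The brighter Zap70 probe set also stood far above the CD3 genes and Cd4. Cd3d was under the floor on all 4 arrays, and Cd3g, Cd3e and Cd4 were too dim to test. Whether the brighter Zap70 signal came from T cells was not tested.

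**Figure D2:**
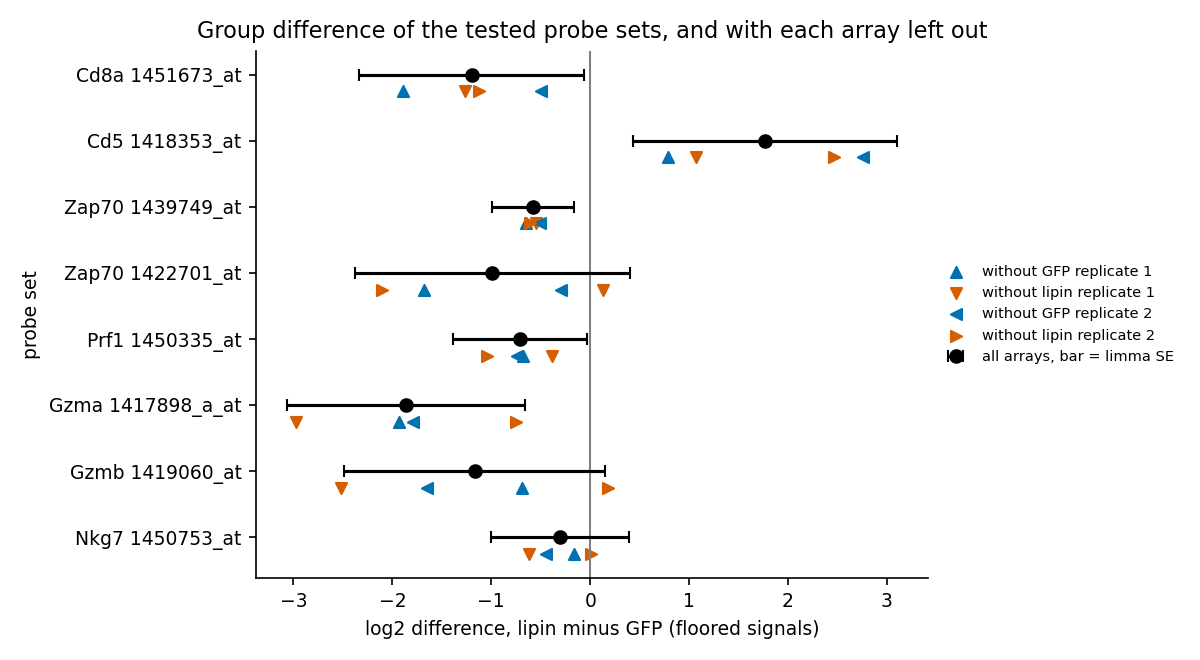
Log2 difference, lipin minus GFP, of the 8 tested probe sets (black point, bar = limma standard error, all 4 arrays) and the same difference with each array left out (triangles; blue where a GFP array, orange where a lipin array was left out). The brighter Zap70 probe set stays between -0.65 and -0.51, whereas the dimmer Zap70, Gzmb and Nkg7 cross 0 when a lipin array is left out.

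The granule genes are shown with the 250 bases before their start sites because all 4 of their tested probe sets had a lower mean in the lipin arrays. The sequences are RefSeq's for GRCm38.p6, written 5′ to 3′ along the gene. Capitals mark matches, on either strand, to 4 short motifs of factors active in lymphocytes: Runx (TGTGGT), ETS (AGGAAG), AP-1 (TGANTCA) and the CRE core (TGACGT).
Prf1 (chr10:61297586-61297835, plus strand): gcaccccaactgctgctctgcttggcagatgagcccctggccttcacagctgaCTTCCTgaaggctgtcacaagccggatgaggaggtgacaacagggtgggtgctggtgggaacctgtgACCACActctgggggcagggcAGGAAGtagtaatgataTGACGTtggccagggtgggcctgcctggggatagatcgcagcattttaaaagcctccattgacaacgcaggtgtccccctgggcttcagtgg
Gzma (chr13:113100982-113101231, minus strand): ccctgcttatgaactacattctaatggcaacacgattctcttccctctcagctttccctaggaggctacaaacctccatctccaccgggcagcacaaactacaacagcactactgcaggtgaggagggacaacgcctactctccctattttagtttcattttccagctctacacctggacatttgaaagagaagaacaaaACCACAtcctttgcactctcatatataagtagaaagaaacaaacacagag
Gzmb (chr14:56262335-56262584, minus strand): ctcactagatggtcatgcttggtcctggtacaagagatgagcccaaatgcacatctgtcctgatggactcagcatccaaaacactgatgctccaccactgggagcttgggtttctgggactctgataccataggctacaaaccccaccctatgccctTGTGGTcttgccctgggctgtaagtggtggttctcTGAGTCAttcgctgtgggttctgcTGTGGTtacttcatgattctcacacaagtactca
Nkg7 (chr7:43436888-43437137, plus strand): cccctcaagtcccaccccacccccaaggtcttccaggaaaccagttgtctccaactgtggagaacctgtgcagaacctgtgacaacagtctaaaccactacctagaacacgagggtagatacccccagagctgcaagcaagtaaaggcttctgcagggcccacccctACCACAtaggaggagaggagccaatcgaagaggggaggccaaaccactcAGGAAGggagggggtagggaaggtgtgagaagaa
The Runx letters were in all 4 windows, where 14.0% of the 32851 promoter windows of this length held them. The ETS letters were in the windows of Prf1 and Nkg7 (29.5% of all windows), the AP-1 letters in that of Gzmb (6.75%) and the CRE core in that of Prf1 (6.47%). No overlap occurred between matches of different motifs. The motifs were chosen after the expression values and sequences were seen, and a match is a description of letters only.

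Prf1 encodes perforin, the pore-forming protein of the granule. Its brighter probe set (1450335_at) read 1292 and 1241 in GFP and 616 and 969.8 in lipin. Both GFP arrays were higher and nearly equal, whereas the lipin arrays lay apart from each other. The means were 1267 ± 36.5 and 793 ± 250.3 (SD, n = 2 each), and the log2 difference was -0.71 ± 0.68 (SE; limma adjusted p = 0.962), or 1.64-fold lower. It was -0.38 without lipin replicate 1 and -1.04 without lipin replicate 2. The dimmer Prf1 probe set (1451862_a_at) read 293 and 46.4 in GFP and 31.3 and 139 in lipin, with 1 array per group under the floor, and was too dim to test.

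Gzma encodes granzyme A, a tryptase-like protease abundant in NK cells. Its signal was 893 and 989.5 in GFP, 559.5 in lipin replicate 1 and 64.6 in lipin replicate 2. Both lipin arrays were lower than both GFP arrays, and the low value of lipin replicate 2, under the floor, carries most of the difference. The log2 difference of -1.86 ± 1.21 (SE, n = 2 each; limma adjusted p = 0.962), or 3.64-fold lower, was the most negative of the tested members. It was -0.75 without lipin replicate 2 and -2.98 without lipin replicate 1. The lipin arrays differed from each other by 2.23 log2 units, measured to the floor, more than the groups did.

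Gzmb, granzyme B, which cleaves after aspartate and activates caspases, showed the same low array. It gave 956 and 492 in GFP and 777 in lipin replicate 1, against 74.8 in lipin replicate 2. Lipin replicate 1 lay between the GFP arrays, so the groups overlapped. The log2 difference was -1.17 ± 1.32 (SE, n = 2 each; limma adjusted p = 0.962), and without lipin replicate 2 it turned to 0.18. The low Gzma and Gzmb readings were thus in the polyA-labelled sample, where Prf1 read 969.8 and Nkg7 684. The part of the RNA type in these values was not tested.

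Nkg7, a membrane protein of cytotoxic granules, differed least. It read 1154 and 950.5 in GFP and 1052 and 684 in lipin, overlapping, with lipin replicate 2 the lowest. The log2 difference was -0.30 ± 0.70 (SE, n = 2 each; limma adjusted p = 0.977), and 0.01 without lipin replicate 2.

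Differences between replicates were as wide as those between groups for most tested members. In 6 of the 8, one of the within-group differences was larger than the group difference, and this held for 80.2% of all tested probe sets. The exceptions were the brighter probe sets of Zap70 and Prf1. The median absolute difference between replicates was 0.62 for the GFP arrays and 1.02 for the lipin arrays over the 8 members, beside 0.71 and 0.55 over all tested probe sets. The members' group differences had a median size of 1.08, beside 0.48 over all tested probe sets. The part of dim signal in this was not tested. The lowest of the 4 arrays was lipin replicate 2 in 4 of the 8 and lipin replicate 1 in 3. The highest was GFP replicate 2 in 4, GFP replicate 1 in 3 and lipin replicate 1 for Cd5.

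**Figure D3:**
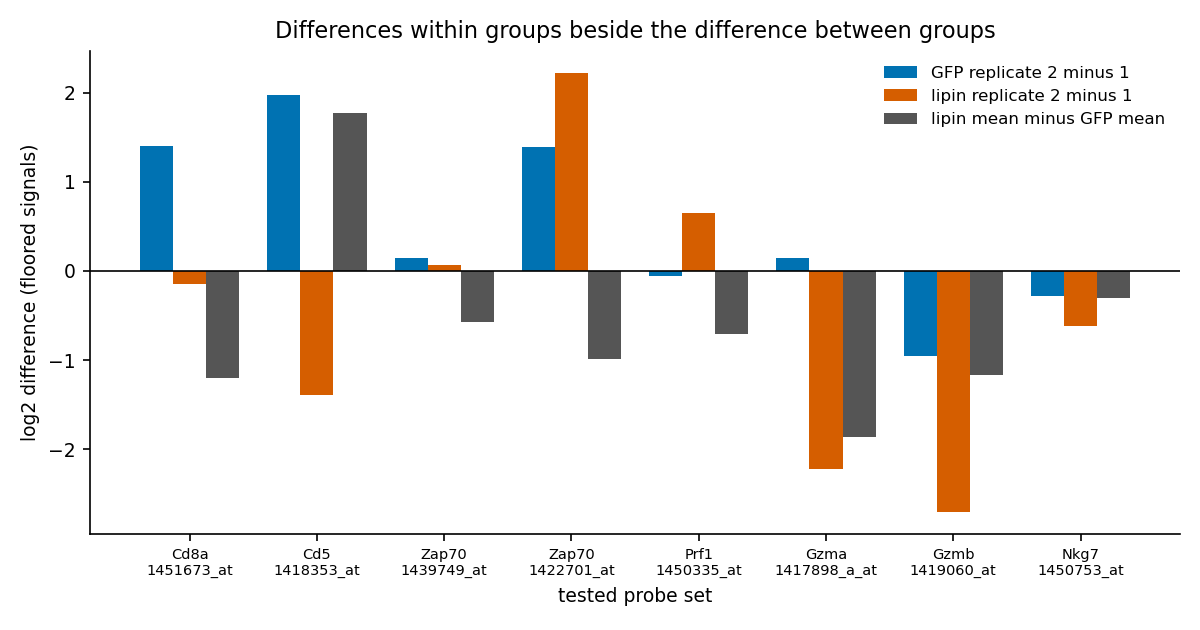
Log2 differences on floored signals for the 8 tested probe sets: GFP replicate 2 minus 1 (blue), lipin replicate 2 minus 1 (orange) and lipin mean minus GFP mean (grey), with bars from 0. The grey bar is the tallest only for the brighter Zap70 and Prf1 probe sets, and the lipin replicates differ by 2.23 log2 units for Gzma and 2.70 for Gzmb.

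Over the 8 tested members the median log2 difference was -0.85, beside 0.00 over all tested probe sets. This median is a description and no support, since the members that passed the filter are a selection, and 3 of them had an array under the floor. With the brightest tested probe set of each gene, the way the gene lists below are read, the median was -0.71. Over all 12 probe sets, dim ones included, the median was -0.56, with 8 below 0, 3 above and Cd3d at 0. Leaving out an array moved the median of the tested members to -0.50 (without GFP replicate 2), -0.58 (without lipin replicate 1), -0.68 (without lipin replicate 2) and -0.69 (without GFP replicate 1).

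Other genes of T cell receptor signalling were mostly too dim to test. Of 25 on the array, 5 were tested, 0 passed the adjusted or unadjusted p of limma, 4 lay below 0, and the median was -0.54, beside 0.00 over the 8493 genes tested. Over all 25, dim ones included, the median was -0.03. For the 5 tested, leaving out lipin replicate 2 gave 0.01, GFP replicate 2 gave 0.15, lipin replicate 1 gave -0.61 and GFP replicate 1 gave -1.06. The brightest tested genes were Fyn, a kinase related to Lck (log2 difference -0.62 ± 0.81), Thy1, a surface glycoprotein of T cells (0.91 ± 1.16), Lcp2, an adaptor downstream of ZAP70 (-0.54 ± 1.05), and Cd247, the zeta chain that ZAP70 binds (-0.28 ± 1.10), with overlapping groups in each. Among the 5 tested, both lipin arrays lay below both GFP arrays in 1, Il7r, the receptor for interleukin 7. It read 979.9 and 904 in GFP and 104 and 618.0 in lipin. Over all genes tested, 16.04% had both lipin arrays below both GFP arrays. Thy1 read 121 in GFP replicate 1 against 1855 in GFP replicate 2. Lef1 and Gata3, transcription factors of T cells, were under the floor on all 4 arrays.

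NK receptors and lymphocyte effector genes had 12 tested of 30 on the array, of which 0 passed either p of limma, 9 lay below 0 and the median was -0.48. In 1 of the 12, the chemokine receptor gene Cxcr6, both lipin arrays lay below both GFP arrays, at 92.9 and 703 against 729 and 1111. The share over all genes tested was 16.04%. The brightest were Tyrobp, an adaptor of NK and myeloid receptors (0.53 ± 0.60), Ccl4, a chemokine (-0.02 ± 0.58), Klrg1, an inhibitory receptor of mature NK and effector T cells (0.10 ± 0.70), and Cd160, a receptor of cytotoxic lymphocytes (-0.73 ± 0.72). Tyrobp is also made by macrophages. Ncr1, which defines NK cells, read 309 and 160.3 in GFP and 296 and 724 in lipin, and Ifng, interferon gamma, was above the floor on 1 array only, at 141 in GFP replicate 1. Klrc1, Klra1 and Klra8, NK receptor genes with near-identical relatives, were under the floor on all 4 arrays. The list's median was -0.24 over all 30, and over those tested -0.15 without lipin replicate 2 and -0.16 without lipin replicate 1.

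In the granule pathway beyond the members, the 8 other granzyme genes on the array (Gzmc, Gzmd, Gzme, Gzmf, Gzmg, Gzmk, Gzmm and Gzmn) were all too dim to test. Several of them are close copies, so their probe sets may share signal. Of the 20 genes of this list on the array 11 were tested, 0 passed either p of limma, 6 lay above 0 and 5 below, and the median was 0.02, or -0.14 over all 20. Lamp1, a lysosome membrane protein (0.10 ± 0.34), Ctsc, the cathepsin that activates granzymes (-0.14 ± 0.39), M6pr, a receptor that sorts granzymes to granules (0.40 ± 0.39), and Stxbp2, a factor of granule fusion (0.33 ± 0.52), were the brightest. All of these are also made by other liver cells. Srgn, the proteoglycan that packs granzymes and is found in many blood cells, was the one of the 11 tested genes whose groups did not overlap. It read 3050.5 and 2701 in GFP and 1444 and 2013 in lipin (-0.75 on the log2 scale). Both lipin arrays lay below both GFP arrays in 16.04% of all genes tested. Serpinb9, the inhibitor of granzyme B, was too dim to test.

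Markers of other blood cells and of hepatocytes also shifted between the arrays, and their part in the members' values was not tested. Pan-leukocyte genes, 14 tested of 17, had a median of -0.08, with 7 above and 7 below 0, which became -0.62 when GFP replicate 2 was left out, 0.17 for GFP replicate 1 and 0.15 for lipin replicate 1. Their summed signal was 19731 and 13594 in GFP and 15679 and 13210 in lipin, and Ptprc, the leukocyte antigen CD45, gave -0.34 ± 0.58. B cell genes, 10 tested of 13, had a median of -0.42 and sums of 15848 and 18562 in GFP and 16894 and 10980 in lipin. The median was -0.95 over all 13, and over those tested ran from -0.85 without GFP replicate 1 to -0.16 without lipin replicate 2, with -0.78 without lipin replicate 1 and -0.24 without GFP replicate 2. The brightest were Sdc1, a proteoglycan of plasma cells that hepatocytes also make (0.10 ± 0.34), Blnk, Ighm and Ms4a1. Blnk, an adaptor of the B cell receptor, read 1857 and 2409 in GFP and 992 and 575.0 in lipin (-1.49 ± 0.60; limma adjusted p = 0.962). Ighm, the immunoglobulin mu chain, gave 0.38 ± 0.85, and Ms4a1, the B cell antigen CD20, -0.45 ± 0.88. In 4 of the 10 tested B cell genes, Blnk and Ms4a1 among them, both lipin arrays lay below both GFP arrays. The same held for 3 of the 14 tested pan-leukocyte genes and for 16.04% of all genes tested. In neither list did a tested gene have both lipin arrays above both GFP arrays.

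Macrophage genes, 17 tested of 20, had a median of -0.18 and sums of 83967 and 47375 in GFP and 74105 and 47076 in lipin, so replicate 2 was lower in each group. The median was between -0.30 (without GFP replicate 2) and 0.12 (without GFP replicate 1) with an array left out, at -0.29 without lipin replicate 1 and 0.09 without lipin replicate 2. Csf1r, the receptor that macrophages depend on, gave -0.31 ± 0.36 and Cd5l, a product of Kupffer cells, 0.54 ± 0.47. Neutrophil genes, 9 tested of 12, had a median of -0.38 and sums of 16957 and 10120.2 in GFP and 9480.5 and 6919 in lipin, and the median was -0.15 over all 12. For those tested, leaving out GFP replicate 2 gave -1.06, lipin replicate 1 gave -0.53, lipin replicate 2 gave -0.28 and GFP replicate 1 gave -0.25. Both lipin arrays lay below both GFP arrays in 1 of the 9 neutrophil genes and 2 of the 17 macrophage genes. They lay above both GFP arrays in 0 of the neutrophil genes and 2 of the macrophage genes. Endothelial and stellate cell genes, 13 tested of 17, had a median of 0.15 and sums of 56162 and 77630.5 in GFP and 41819 and 66850 in lipin, and the median was -0.02 without GFP replicate 1. Erythroid genes, 4 tested of 6, had a median of -0.30 and sums of 4244 and 6581 in GFP and 6594 and 3519 in lipin, and the median ran from -0.65 without GFP replicate 1 and -0.59 without lipin replicate 1 to -0.02 without lipin replicate 2 and 0.04 without GFP replicate 2. Hepatocyte genes, 11 tested of 11, had a median of 0.40, with 10 above 0 and 4 whose lipin arrays both exceeded the GFP arrays, as in 17.3% of all genes tested. Their summed signal was 1945600 and 4260740 with GFP and 2814190 and 3591540 with lipin, so GFP replicate 1 was the lowest and GFP replicate 2 the highest. The hepatocyte median was -0.32 without GFP replicate 1, 0.08 without lipin replicate 2, 0.67 without lipin replicate 1 and 0.76 without GFP replicate 2. In these 7 lists 0 of 78 genes passed the adjusted p of limma and 5 had an unadjusted p under 0.05, as had 4.63% of all genes tested.

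**Figure D4:**
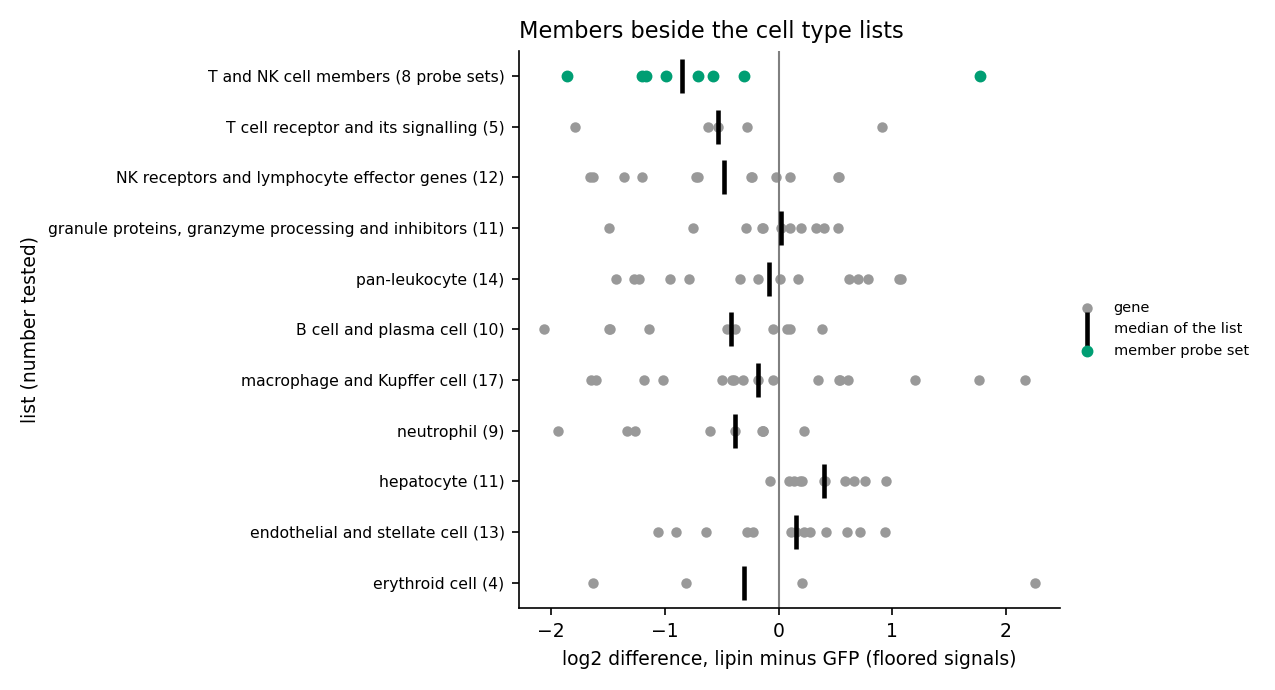
Log2 difference, lipin minus GFP, for the 8 tested member probe sets (green) and for each tested gene of the cell type lists (grey), with the median of each list as a black bar and the number tested in brackets. The members' median is -0.85 over probe sets, or -0.71 (not drawn) with 1 probe set per gene, as the lists are read. Both stand below the T cell (-0.54), NK (-0.48), B cell (-0.42) and neutrophil (-0.38) medians of tested genes on all 4 arrays. This order changed with the arrays and probe sets used. Without GFP replicate 1 the T cell median was -1.06 and the B cell median -0.85, beside -0.69 for the member probe sets. With dim probe sets included, B cell genes were at -0.95 and the members at -0.56. Without lipin replicate 2 the members, at -0.68, were still below these 4 lists. The other granule genes lie around 0.02 and the hepatocyte genes around 0.40, with wide overlap of single genes.

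The genes most like the members were sought by the distance between a gene's 4 centred log2 signals and the members' mean profile, which stood at 0.08 (GFP replicate 1), 0.55 (GFP replicate 2), -0.06 (lipin replicate 1) and -0.57 (lipin replicate 2). Of 8486 genes, the nearest were Cnnm2 (root mean square distance 0.046 log2 units), Mob4 (0.049), Ufm1 (0.052), Gnai1 (0.055), Rnf138 (0.062) and Wars (0.064), and 23 genes lay within 0.1. Mob4, for example, read 6335 and 9370.1 in GFP and 5653 and 3965 in lipin, with -0.70 ± 0.36 as its log2 difference (SE, n = 2 each; limma adjusted p = 0.962). None of these 6 was on the T cell, NK or leukocyte lists, and with 4 arrays such likeness is a weak description.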

How the data were processed

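Liver RNA of 4 samples, 2 given GFP adenovirus and 2 given lipin 1beta adenovirus, was assigned to groups from the titles. The authors deposited linear intensity values, made with MAS5 (submitters' processing notes), with 1 signal for each probe set on each array. For the MAS5 version and scaling target, nothing is given in the sources used here, and detection calls were not used. MAS5 subtracts mismatch probes, which leaves dim probe sets noisy. The signals were used as deposited. After AFFX controls were removed, signals below the 20th percentile were set to it and converted to log2. The 13576 probe sets whose mean reached the 40th percentile were tested with limma 3.58.1 in R 4.3.3 (lmFit, eBayes with an intensity trend, 12.7 prior degrees of freedom), in two-sided tests adjusted by Benjamini-Hochberg over all of them. The floor alters the differences of dim genes, and can shrink, enlarge or reverse them. The number of arrays limits precision.

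Names came from the platform annotation, updated by Entrez identifier through RefSeq's GRCm38.p6 table (20351 of 20380 probe sets with 1 symbol matched); a list gene was read by its brightest tested probe set. The members and lists were chosen with earlier results of these data known. Named are every member probe set, up to 4 of the brightest tested genes per list, the 6 genes nearest in profile, and Lpin1; other genes were named after their values were seen. Replicate numbers were checked for pairing: the deviations of same-numbered arrays correlated at 0.028 over 13576 probe sets. The fit was tested on simulated data, but only with changes larger than that of any tested member, so it was not tried at their size. Alternatives covered normalization, floor, filter, trend, the replicate block, each array left out and, for the members' median, the choice of probe sets.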

Additional observations from a re-analysis of the deposited data

How the results depend on the processing

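The number of arrays, 2 per group, limits every value, and for the 6 member probe sets with an array under the floor the floor limits the difference as well. Of the 8 tested members, 5 kept their direction under every alternative that gave a value. The other 3 turned with an array left out: the dimmer Zap70 probe set ran from -2.10 to 0.12 (without lipin replicate 1), Gzmb from -2.52 to 0.18 and Nkg7 from -0.61 to 0.0061 (both without lipin replicate 2). No member passed an adjusted p of 0.05 under any alternative run, with the lowest, 0.568, for Cd8a without GFP replicate 1. The members' median of -0.85 was -0.62 with the floor at the 30th percentile and -0.56 with no filter. It was -0.58 with the filter at the 60th percentile (3 probe sets left) and -0.69 to -0.50 with an array left out. Under the other alternatives it lay between -0.85 and -0.71. The limma call of 0 probe sets among all 13576 became 52 with the replicate block, and 0 to 13 with an array left out (13 without lipin replicate 1). The samples share only a number, so the block is no pairing, and 1 residual degree of freedom is left in these fits. With the block, and without either lipin array, limma's prior degrees of freedom were infinite. The spread of each probe set was then replaced wholly by the trend, so those counts are not reliable calls. At an adjusted p of 0.1 the count stayed 0.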
